A study of Homo sapiens with 9 samples.

Results

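STEAP reductases and iron-handling genes were followed across control, knockdown and rescue cells of the prostate cancer line LNCaP. The group holds 10 genes, picked by symbol out of 60880 gene rows: STEAP1, STEAP2, STEAP3, STEAP4, TFRC, SLC40A1, SLC11A2, FTH1, FTL and NCOA4. All 10 had a row in every table, and 9 passed the filter on low counts; STEAP4 did not. LNCaP is an established, androgen-responsive human line. The study compared 3 groups of 3 libraries at 24 h: control cells (NT), cells with UGT2B28 knockdown (1 line, KD4, kept in 3 µg/mL puromycin) and rescue cells, in which UGT2B28 was overexpressed in that knockdown background (KD4OE, kept in 1 mg/mL G418). UGT2B28 conjugates steroids to glucuronic acid. No selection agent is named for control, and all cells grew in medium with 10% fetal bovine serum, a source of iron. Between knockdown and rescue the named antibiotic differed along with the construct, so their effects cannot be told apart. The same limit applies to both comparisons with control, for which neither antibiotic is named. Each group also carries 1 line label (NT, KD4 or KD4OE). Differences between lines therefore cannot be told apart from an effect of UGT2B28 in any comparison. No source calls the replicates independent cultures, and the p-values then rest on a spread among libraries that could be purely technical.

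Cells take up iron bound to transferrin through the transferrin receptor, encoded by TFRC. In the endosome a STEAP reductase, chiefly STEAP3 in red cell precursors, reduces ferric to ferrous iron, which the transporter DMT1, encoded by SLC11A2, moves into the cytosol. Spare iron is stored in ferritin, a shell of heavy (FTH1) and light (FTL) chains that NCOA4 carries to the lysosome when iron is needed, and ferroportin, encoded by SLC40A1, is the exporter. STEAP1 and STEAP2 are cell-surface and endosomal proteins known for high levels in prostate cancer, and STEAP4 is known as an androgen-induced gene in prostate cells.

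Several of these genes carry the iron-responsive element, a hairpin that the iron regulatory proteins (encoded by ACO1 and IREB2) bind when iron is scarce. Bound before the coding part, it blocks translation; bound after it, it protects the mRNA from decay. The hairpins are shown because they set apart the genes whose mRNA level this system is known to act on (TFRC) from those whose translation it acts on (FTH1, FTL, SLC40A1). GENCODE v29 transcripts were searched on their own strand for a C followed by 5 bases, the loop CAGTGN and 5 bases that pair with the first 5, G-T pairs allowed. Matches are printed 5′ to 3′ as DNA letters with 3 bases on each side, the 6 loop bases in capitals, and positions on GRCh38.
FTH1, 5′ UTR, chr11:61967577-61967599, minus strand: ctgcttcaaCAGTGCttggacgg
FTL, 5′ UTR, chr19:48965338-48965360, plus strand: ttgcttcaaCAGTGTttggacgg
SLC40A1, 5′ UTR, chr2:189580664-189580686, minus strand: cttcagctaCAGTGTtagctaag
TFRC, 3′ UTR, chr3:196050982-196051004, minus strand: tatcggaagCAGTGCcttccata
TFRC, 3′ UTR, chr3:196050578-196050600, minus strand: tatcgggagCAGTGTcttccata
TFRC, 3′ UTR, chr3:196050513-196050535, minus strand: tatcggagaCAGTGAtctccata
TFRC, 3′ UTR, chr3:196050466-196050488, minus strand: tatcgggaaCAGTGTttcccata
The FTH1 and FTL hairpins were identical at 21 of 23 bases. TFRC held 4 matches. A match in the 5′ UTR was found in 36 of 19644 coding genes (0.183%) and one in the 3′ UTR in 132 (0.672%). The other 6 genes, SLC11A2 among them, had no match to these letters, which says nothing of variant hairpins.

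Libraries held 20300744 to 26459528 gene counts. Control replicate 1 stood apart over all genes: its chi-square per degree of freedom was 22.01 and 18.4 against the other control libraries, which gave 5.05 between them, and the knockdown and rescue pairs gave 6.38 to 11.2. UGT2B28 had 25, 4 and 10 counts for control, 17, 8 and 1 for knockdown and 1124, 1554 and 1857 for rescue. With so few counts no fall could be detected in the libraries labelled knockdown (edgeR adjusted p = 0.518; log2 fold change −0.60, SE 0.62), and knockdown below names that label. Levels are given in CPM (counts scaled for library depth with TMM factors). Markers of luminal prostate cells were present in every group: KLK3, which encodes prostate-specific antigen, was at 1428 ± 140.7 CPM for control, 3750 ± 150.8 for knockdown and 4407 ± 282.9 for rescue (SD, n = 3). KLK3, FOLH1, HOXB13 and the keratin KRT18 rose in knockdown against control (log2 fold changes 1.39, 0.41, 0.45 and 0.26), and KRT8 was not called (0.07, edgeR adjusted p = 0.522). In rescue against knockdown KRT8 fell (−0.29, edgeR adjusted p = 0.0135), HOXB13 rose (0.30, adjusted p = 0.0061) and KLK3, FOLH1 and KRT18 were not called. In rescue against control KRT8 was also lower (−0.21, edgeR adjusted p = 0.0257). KLK3, HOXB13 and FOLH1 were higher there (1.63, 0.75 and 0.52, adjusted p = 5.78e-15, 2.39e-09 and 9.88e-07). KRT18 was not called (0.07, adjusted p = 0.504). The part of these markers in the results below was not tested. In bulk RNA, more cells of a kind and more RNA per cell cannot be told apart. Markers of other cells were low: macrophage genes summed to 2.40 to 3.77 CPM with PTPRC and ADGRE1 at 0 in all libraries. Of the erythroid genes, HBA2 was at 0 in all libraries and HBB had 4 counts in all. Hepatocyte genes summed to 0.898 to 2.29 CPM. Basal genes summed to 19.4 to 26.4 CPM for control, 8.33 to 8.62 for knockdown and 9.63 to 10.5 for rescue, and TP63 and KRT5 were each below the filter. Most of that sum was the integrin ITGB4, which fell in knockdown against control (19.3 to 4.01 CPM, adjusted p = 7.89e-10), as did KRT15 (adjusted p = 0.00645), while the keratin KRT14 rose (1.77 to 4.11 CPM, adjusted p = 0.00165). Fibroblast genes summed to 62.85 to 72.5 CPM for control, 42.6 to 52.7 for knockdown and 58.0 to 70.9 for rescue, nearly all from COL1A1, with COL1A2, DCN and LUM at 0 in control. COL1A1 fell in knockdown (−0.50, adjusted p = 0.000183) and rose in rescue against knockdown (0.39, adjusted p = 0.0081), and COL3A1 fell in knockdown (−3.33, adjusted p = 0.00529). KRT15 and COL3A1 were at 0.55 and 0.89 CPM in control, against 0.027 and 0.083 in knockdown. Both could pass the filter only with control libraries, so the filter favoured their falls. The part of these basal and fibroblast genes in the results was not tested either. MRC1 was not matched.

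In knockdown against control STEAP1 and TFRC rose, STEAP3 and FTL fell, and STEAP2, SLC11A2, FTH1 and NCOA4 were not called. In rescue against knockdown STEAP1, STEAP2 and TFRC rose and both ferritin chains fell. A call is an edgeR quasi-likelihood p, adjusted over 18389 genes by Benjamini-Hochberg, under 0.05. The members count as 3 higher, 2 lower and 4 not called of 9 tested in knockdown against control, where 32.1% of all genes were called (16.5% higher and 15.6% lower). They count as 3 higher and 2 lower in rescue against knockdown (10.1% of all genes, 5.2% higher and 4.88% lower), and as 4 higher and 3 lower in rescue against control (37.8% of all genes, 19% higher and 18.8% lower). SLC40A1 passed the filter only through its knockdown and rescue libraries, so it had to differ. Without it, 4, 5 and 6 of 8 members were called in these comparisons, with a median absolute log2 fold change of 0.18, 0.27 and 0.55, against 0.29, 0.19 and 0.34 over all genes tested. Any 2 of these comparisons share a group of libraries, so their values are set side by side only. The members were chosen with earlier results of these data known, so their shares beside all genes are no test of the group.

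**Figure D1:**
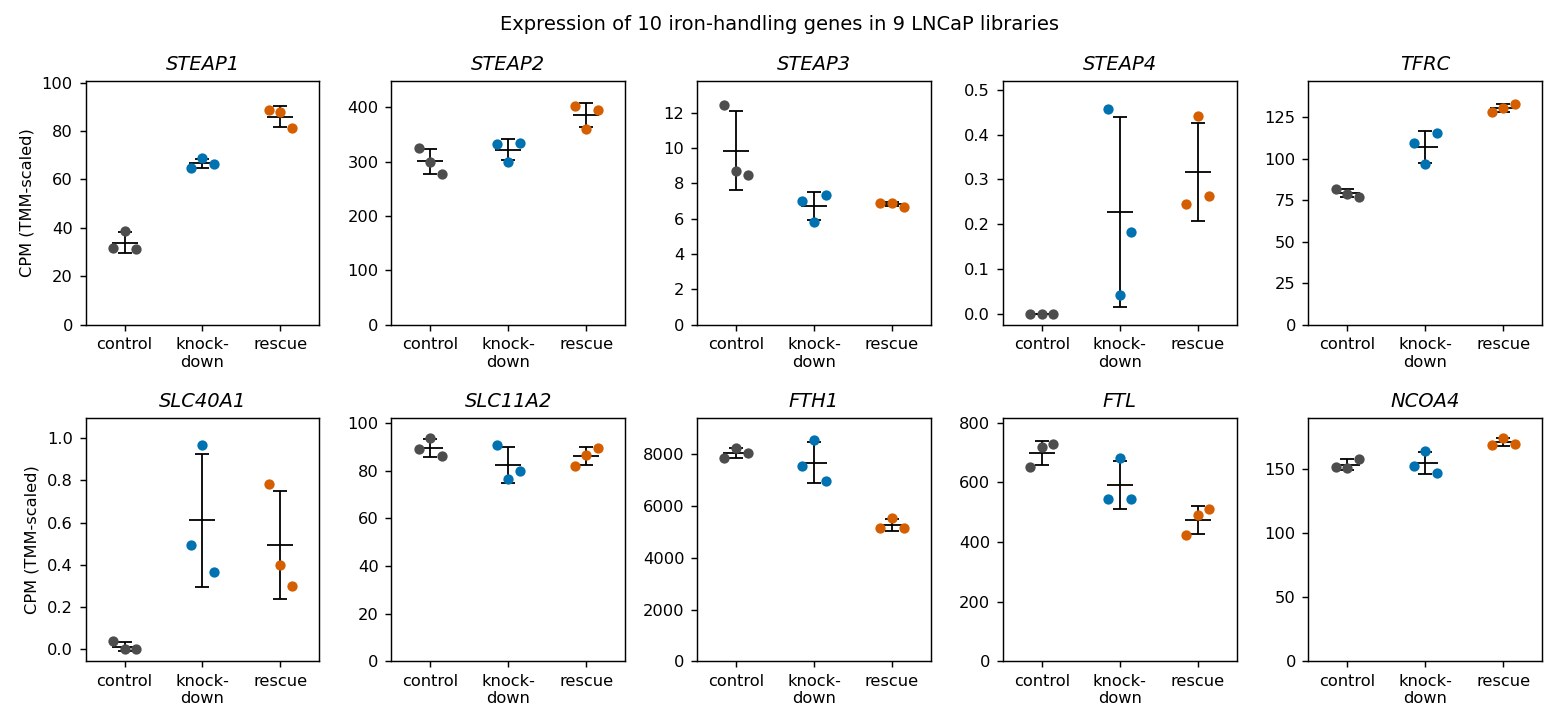
CPM (TMM-scaled, linear axes, 1 scale per gene) of the 10 genes in the 9 libraries; points are libraries, bars the mean ± SD of 3. STEAP1 and TFRC step up from control to knockdown to rescue, FTH1 is at 5128 to 5518 CPM in rescue against 6946 to 8528 in the 6 others, and STEAP4 has no counts in control.

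Among the reductases, STEAP1 differed most between the groups of the 3 STEAP genes tested. Encoded on chromosome 7 (gene ENSG00000164647.8_2 in the tables), it is a cell-surface antigen of prostate cancer that lacks the NADPH-binding domain of its relatives. Its level was 31.7, 38.7 and 31.3 CPM in the control libraries, 64.75, 68.7 and 66.4 in knockdown and 88.8, 88.0 and 81.1 in rescue. No group overlapped another, and the order was control, knockdown, rescue. Group means were 33.9 ± 4.19, 66.6 ± 1.98 and 86.0 ± 4.22 CPM (SD, n = 3). STEAP1 rose 1.97-fold in knockdown against control (edgeR adjusted p = 1.11e-09; log2 fold change 0.97, SE 0.09) and a further 1.29-fold in rescue (0.37, SE 0.09, adjusted p = 0.00558). Of all genes tested, 12.3% had a difference at least as large as its first and 26.5% one at least as large as its second. Both calls remained whichever single library was left out. Its near-identical paralog STEAP1B had 9 counts over all libraries, 0.068% of the STEAP1 counts.

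STEAP2, a neighbour of STEAP1 on chromosome 7, is a ferric reductase of endosomes and the cell surface. It was at 325.3, 298.8 and 278.3 CPM for control, 332.4, 300.3 and 333.8 for knockdown and 403.6, 361.2 and 394.8 for rescue. Control and knockdown overlapped, and every rescue library lay above them. The difference of knockdown from control was not called (log2 fold change 0.10, SE 0.08, adjusted p = 0.347). STEAP2 rose 1.2-fold in rescue against knockdown (0.26, SE 0.08, edgeR adjusted p = 0.0234), and this call was lost without knockdown replicate 2 (adjusted p = 0.115), rescue replicate 1 (0.126) or rescue replicate 3 (0.0825). Against control the rise of 0.36 (SE 0.08, adjusted p = 0.000333) remained in every leave-one-out fit. In control, 97.5, 129.7 and 112.5 STEAP1 counts were found per 1000 STEAP2 counts, against 194.8 to 228.8 in knockdown and 205.5 to 243.7 in rescue. This within-library ratio, chosen after its values were seen, needs no scaling; control did not overlap knockdown (exact permutation p = 0.1, two-sided, the smallest that 3 against 3 allows; adjusted over 12 ratio tests 0.12), while knockdown and rescue overlapped (exact permutation p = 0.4).

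STEAP3, encoded on chromosome 2, is the endosomal reductase that works with the transferrin receptor. It was at 12.4, 8.68 and 8.45 CPM for control, 7.02, 5.81 and 7.32 for knockdown and 6.91, 6.90 and 6.67 for rescue. All control libraries lay above the 6 others, with control replicate 1, the library that stood apart over all genes, the highest, and knockdown and rescue overlapped. STEAP3 fell by 0.56 on the log2 scale in knockdown (SE 0.18, edgeR adjusted p = 0.0175) and was lower by a similar amount in rescue against control (−0.53, SE 0.18, adjusted p = 0.0196). Both calls were lost without control replicate 1, at −0.35 (adjusted p = 0.191) and −0.33 (adjusted p = 0.208). The first was also lost without knockdown replicate 2 (adjusted p = 0.0901) and the second without rescue replicate 3 (adjusted p = 0.0575). Rescue against knockdown was not called (0.02, SE 0.18, adjusted p = 0.962). The antisense gene STEAP3-AS1, whose exons overlap, had 290 counts in all, 17.3% of the STEAP3 counts. Summing the 2 genes gave −0.55 for knockdown against control (adjusted p = 0.016).

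STEAP4, on chromosome 7, had no counts in the 3 control libraries, 12, 1 and 4 in knockdown and 5, 11 and 7 in rescue. Against a floor of 3 counts over the control libraries (0.0427 CPM), its counts were 5.55-fold higher in knockdown and 7.48-fold higher in rescue. The knockdown and rescue counts enter these folds as exact, so the folds are not lower limits. Knockdown replicate 1 held 12 of the 17 knockdown counts, and without it the first fold was 2.57. Without control replicate 1 the folds were 3.44 and 4.64. The ratio of rescue to knockdown was 1.35 (95% exact counting interval 0.689 to 2.69), or 2.91 without knockdown replicate 1. With no filter on low counts the edgeR test gave adjusted p = 0.0181 for knockdown and 0.00666 for rescue against control. In such fits without 1 library the first call was lost without knockdown replicate 1 (adjusted p = 0.152) or control replicate 1, 2 or 3 (0.0679, 0.0548 and 0.0583), and the second in no case (highest adjusted p = 0.0337). Exons of AC003991.1 overlap it on the other strand; that gene had 13 counts, 32.5% of the STEAP4 counts. Intervals cover counting error only, and the folds against a floor allow for it in control only.

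For each STEAP gene tested, the 2 genes most like it were those with the smallest root mean square difference in log2(CPM + 0.1), centred on each gene's mean over the 9 libraries. They were ZNF737 (0.092) and CLGN (0.10) for STEAP1, GNA11 (0.048) and WDR7 (0.053) for STEAP2, and NFIC (0.079) and NLGN2 (0.085) for STEAP3. ZNF737 had log2 fold changes of 0.96 and 0.21 in knockdown against control and rescue against knockdown, the second not called (edgeR adjusted p = 0.384). In the same order CLGN, a chaperone of the endoplasmic reticulum, had 0.89 and 0.36. GNA11 had 0.17 and 0.21 and WDR7 0.17 and 0.22, none of them called. NFIC had −0.40 and 0.0014, and NLGN2, a neuronal adhesion protein, had −0.62 and 0.02. All were picked for likeness over the same 9 libraries, so similar fold changes were built in.

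Among the genes of uptake, TFRC (ENSG00000072274.12_2, chromosome 3) rose in both steps. Its level was 81.8, 78.7 and 77.0 CPM for control, 109.3, 97.0 and 115.8 for knockdown and 128.4, 130.5 and 133.2 for rescue. The 3 groups did not overlap, and knockdown replicate 2 was the lowest of its group. TFRC rose 1.36-fold in knockdown (edgeR adjusted p = 4.59e-05; log2 fold change 0.44, SE 0.08) and 1.22-fold in rescue against knockdown (0.28, SE 0.08, adjusted p = 0.0135). The second call was lost without knockdown replicate 2 (0.22, adjusted p = 0.0997) or rescue replicate 3 (0.27, adjusted p = 0.0547). Rescue against control, 1.65-fold (adjusted p = 9.72e-09), remained in every leave-one-out fit. SLC11A2, encoded on chromosome 12, was at 86.1 to 93.7 CPM for control, 76.4 to 91.0 for knockdown and 82.1 to 89.6 for rescue. These ranges overlapped, and none of its 3 differences was called (−0.12, 0.06 and −0.06, each with SE 0.08; adjusted p from 0.269 to 0.712).

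**Figure D2:**
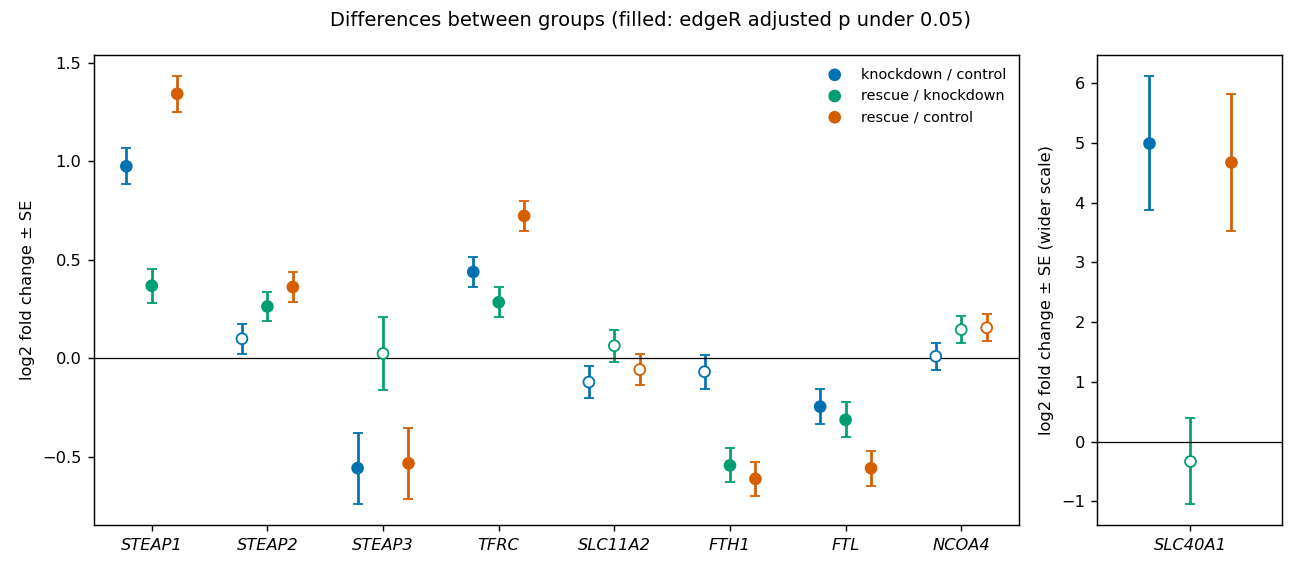
Log2 fold change ± SE of the 9 tested genes in the 3 comparisons (edgeR, 3 libraries a group; filled points have an adjusted p under 0.05; SLC40A1 has its own axis). STEAP1 and TFRC lie above 0 in all 3, FTL below 0 in all 3, and FTH1 is near 0 in knockdown / control and at −0.54 in rescue / knockdown.

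In the storage group, the heavy ferritin chain was the most abundant member by far. FTH1, on chromosome 11 (ENSG00000167996.15_3), was at 7857, 8244 and 8023 CPM for control, 7532, 8528 and 6946 for knockdown and 5133, 5518 and 5128 for rescue. Control and knockdown overlapped, with knockdown replicate 2 the highest of all 9, and every rescue library lay below the 6 others. Knockdown was not called against control (log2 fold change −0.07, SE 0.09, edgeR adjusted p = 0.596). FTH1 fell by 0.54 in rescue against knockdown, to 0.686 of its level (SE 0.09, adjusted p = 6.71e-05), and by 0.61 against control (SE 0.09, adjusted p = 1.63e-06), both on the log2 scale. A difference of at least the first size was seen in 15.8% of all genes tested. Both calls remained in every leave-one-out fit, the first at −0.46 without knockdown replicate 2.

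The reads of FTH1 could not be separated from those of BEST1, a channel gene known from retinal pigment epithelium whose exons overlap FTH1 on the other strand. BEST1 had 68044 to 141258 counts per library, and its counts were 0.636 to 0.697 of those of FTH1 in every library. The strand setting of the counting is not given in the sources used here. The counting assigned 48.83% to 50.71% of reads to no feature, which does not place them outside genes. With both genes summed, an alternative chosen after seeing the data, rescue against knockdown was −0.57 (edgeR adjusted p = 6.08e-05) and knockdown against control −0.05 (adjusted p = 0.706). Processed pseudogenes of FTH1 (25 rows) held 491 counts, 0.033% of those of FTH1, and those of FTL (16 rows) 0.25%. Ferritin reads that aligned to several copies would not have been counted, so the absolute levels of both chains are uncertain; 5.26% to 7.62% of reads did not align uniquely.

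FTL, on chromosome 19, was at 653.4, 718.0 and 728.3 CPM for control, 543.2, 682.6 and 544.9 for knockdown and 423.0, 490.4 and 512.2 for rescue. Control overlapped knockdown through knockdown replicate 2, and rescue lay below both. FTL fell by 0.25 on the log2 scale in knockdown against control (SE 0.09, edgeR adjusted p = 0.0333), by 0.31 in rescue against knockdown (SE 0.09, adjusted p = 0.0217) and by 0.56 in rescue against control (SE 0.09, adjusted p = 1.1e-05). The first call was lost without control replicate 2 (adjusted p = 0.0979), control replicate 3 (0.109), knockdown replicate 1 (0.166) or knockdown replicate 3 (0.166). The second was lost without knockdown replicate 2 (−0.19, adjusted p = 0.205) or rescue replicate 1 (−0.24, adjusted p = 0.173), and the third by no single library. NCOA4, the ferritin receptor of autophagy on chromosome 10, was at 150.5 to 157.8 CPM for control, 146.9 to 163.5 for knockdown and 168.0 to 174.1 for rescue. All rescue libraries lay above the others, and no comparison was called: rescue against knockdown was 0.15 (SE 0.07, adjusted p = 0.205) and rescue against control 0.15 (SE 0.07, adjusted p = 0.0789). Knockdown against control was 0.01 (SE 0.07, adjusted p = 0.936), and its sign turned to −0.03 when libraries were scaled by their totals only.

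The ratio of receptor to ferritin counts within a library does not depend on scaling; it was chosen after its values were seen. Per 1000 FTH1 counts there were 10.4, 9.55 and 9.60 TFRC counts for control, 14.5, 11.4 and 16.7 for knockdown and 25.0, 23.6 and 26.0 for rescue. The groups did not overlap, knockdown replicate 2 lay nearest to control, and the rescue mean was 2.52-fold the control mean (geometric means). Per 1000 FTL counts there were 105.8 to 125.2 TFRC counts for control, 142.0 to 212.5 for knockdown and 260.1 to 303.6 for rescue, again with no overlap. Each of these 6 differences gave an exact permutation p of 0.1, two-sided, the smallest that 3 libraries against 3 allow (0.12 adjusted over 12 ratio tests). The ratio of the 2 ferritin chains moved less: FTL was at 83.2 to 90.8 counts per 1000 FTH1 counts for control, 72.1 to 80.04 for knockdown and 82.4 to 99.9 for rescue, with overlap between control and rescue (exact permutation p = 0.7) and none between either of them and knockdown (exact permutation p = 0.1).

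**Figure D3:**
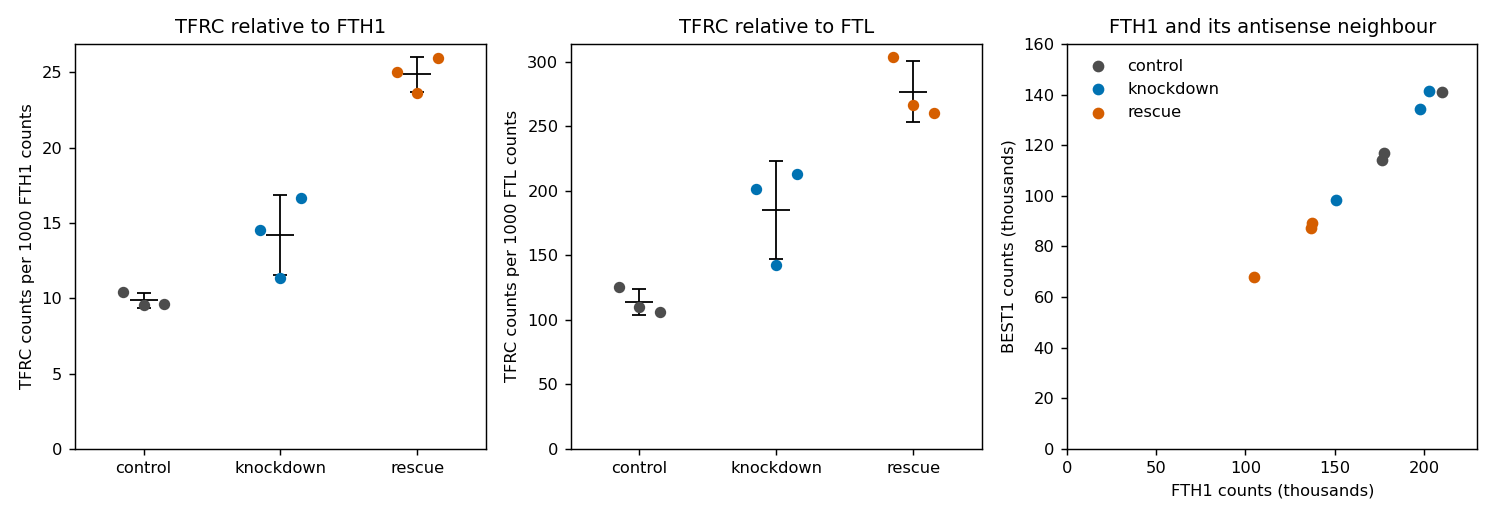
TFRC counts per 1000 FTH1 counts (left) and per 1000 FTL counts (middle) in each library, with mean ± SD of 3, and BEST1 against FTH1 counts in units of 1000 (right). The rescue libraries sit at 23.6 to 26.0 in the left panel against 9.55 to 10.4 in control, and in the right panel all 9 libraries lie along 1 line at 0.636 to 0.697 BEST1 counts per FTH1 count.

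Ferroportin mRNA was close to the detection limit. SLC40A1, on chromosome 2, had 1, 0 and 0 counts for control, 13, 23 and 8 for knockdown and 16, 10 and 8 for rescue. Every knockdown and rescue library lay above every control library, and knockdown and rescue overlapped. Summed over libraries, the ratio to control was 43.1 in knockdown (95% exact counting interval 7.34 to 1741) and 33.2 in rescue (5.57 to 1349). The 1 control count lay in control replicate 1. Without that library SLC40A1 counts were 8.91-fold higher in knockdown and 6.86-fold in rescue, against a floor of 3 counts over the other control libraries. These folds again take the knockdown and rescue counts as exact. The edgeR adjusted p against control was 0.00095 for knockdown and 0.00174 for rescue. Since SLC40A1 passed the filter only through knockdown and rescue libraries, none of these values against control is support for a rise. That holds for the ratios, their intervals, the folds, the p-values and the lack of overlap. The intervals cover counting error only, with the libraries of a group summed. The ratio of rescue to knockdown was 0.77 (0.477 to 1.23, edgeR adjusted p = 0.852). Per kilobase its mean level was 0.00288 CPM for control, 0.141 for knockdown and 0.114 for rescue, against 797.2, 672.3 and 541.2 for FTL.

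Levels were compared between genes per kilobase of merged exons (GENCODE v29). In control the order was FTH1 at 3961 ± 95.6 CPM per kilobase (SD, n = 3), FTL at 797.2 ± 46.2, NCOA4 at 37.55 ± 0.991, STEAP2 at 34.5 ± 2.71, STEAP1 at 20.9 ± 2.58, TFRC at 10.0 ± 0.308, SLC11A2 at 8.84 ± 0.378 and STEAP3 at 2.16 ± 0.49, with SLC40A1 and STEAP4 last. NCOA4 and STEAP2 did not differ beyond their spread. STEAP1 lay below STEAP2 in control and above it in rescue, where it was at 52.9 ± 2.59 CPM per kilobase against 44.35 ± 2.56; in knockdown they were at 41.0 ± 1.22 and 37.0 ± 2.18. The order between genes depends on the lengths used, since merged exons of STEAP2 span 8715 bases and those of STEAP1 1625.

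The genes that sense iron differed little. ACO1 and IREB2, the iron regulatory proteins, and FBXL5, the ligase subunit that removes IREB2 protein when iron is ample, were not called in any comparison, with log2 fold changes from −0.04 to 0.13. IREB2 was at 136.2 ± 3.15, 142.5 ± 12.7 and 146.2 ± 1.37 CPM (SD, n = 3) in control, knockdown and rescue. Over all 7 lists of other iron and haem genes, 66 of 73 genes were tested. In knockdown against control 12 were higher and 7 lower (28.8% called, against 32.1% of all genes), in rescue against knockdown 3 and 3 (9.09% against 10.1%), and in rescue against control 18 and 9 (40.9% against 37.8%). These shares lie near the background.

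Of 8 tested genes of uptake and endosomal release, 1 rose and 0 fell in knockdown against control. It was SLC39A8, an importer of zinc, manganese and iron, at 17.4 ± 0.375 CPM for control, 31.7 ± 3.61 for knockdown and 32.1 ± 0.661 for rescue (log2 fold change 0.87, SE 0.11, edgeR adjusted p = 2.52e-07). In rescue against knockdown 2 rose and 1 fell (37.5% called, against 10.1% of all genes). The related importer SLC39A14 rose from 131.1 ± 9.58 to 167.6 ± 9.56 CPM (0.35, adjusted p = 0.00183), and HFE, a partner of the transferrin receptors, from 1.29 ± 0.539 to 3.16 ± 0.607 CPM (1.31, SE 0.40, adjusted p = 0.0372). SNX3, a sorting protein that recycles the transferrin receptor, fell from 137.4 ± 11.1 to 107.9 ± 5.03 CPM (−0.35, adjusted p = 0.00405).

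In the export list 2 of 3 tested genes fell in knockdown and 0 rose (66.7% called, against 32.1% of all genes). Ceruloplasmin (CP), a copper ferroxidase, went from 12.7 ± 1.89 to 6.41 ± 0.548 CPM (log2 fold change −0.98, SE 0.18, edgeR adjusted p = 0.000103). APP, the amyloid precursor, went from 368.1 ± 10.9 to 238.0 ± 3.70 CPM (−0.63, SE 0.07, adjusted p = 4.58e-08). In rescue against knockdown neither was called (0.16 and 0.18). Of 6 tested genes for storage and cytosolic iron chaperones 1 fell in knockdown, PCBP4, at −0.29 (adjusted p = 0.0402), and the same gene rose in rescue against knockdown by 0.35 (adjusted p = 0.0338). That is 16.7% called in each comparison, against 32.1% and 10.1% of all genes. Of 3 tested genes of hepcidin signalling, 1 fell in knockdown (33.3% called, against 32.1% of all genes). It was TMPRSS6, a protease that dampens that signal (named after its value was seen), from 1.16 ± 0.378 to 0.293 ± 0.0364 CPM (−1.97, SE 0.60, edgeR adjusted p = 0.0123). TMPRSS6 was at 0.367 ± 0.104 CPM in rescue and could pass the filter only with its control libraries, so the filter favoured this fall. In rescue against knockdown edgeR called 0 of the 3, against 10.1% of all genes.

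In the haem list 4 of 19 genes rose and 2 fell in knockdown (31.6% called, against 32.1% of all genes). FECH, ferrochelatase, which inserts iron into haem, went up from 51.6 ± 5.50 to 77.55 ± 4.38 CPM (edgeR adjusted p = 6.29e-06; log2 fold change 0.59, SE 0.09), and the haem-binding protein PGRMC1 from 94.9 ± 9.81 to 127.2 ± 9.17 CPM (0.42, adjusted p = 0.000133). ALAD, an early enzyme of the pathway, fell from 37.1 ± 0.606 to 27.4 ± 2.11 CPM (−0.44, adjusted p = 0.00133). The others that passed, outside the naming rule and named after their values were seen, were UROS (0.43) and BLVRB (0.49) upward and FLVCR2 (−0.86) downward. In rescue against knockdown 0 rose and 2 fell (10.5% called, against 10.1% of all genes). These were HMOX1, the oxygenase that frees iron from haem, from 251.0 ± 27.2 to 175.1 ± 7.84 CPM, and UROD, a haem synthesis enzyme, by 0.36 on the log2 scale (edgeR adjusted p = 0.0355). Of 24 tested genes for mitochondrial iron and iron-sulphur clusters, 7 rose and 1 (MMS19, at −0.25, named after its value was seen) fell in knockdown. That is 33.3% called, against 32.1% of all genes. In rescue against knockdown edgeR called 0 of them, against 10.1% of all genes. CIAPIN1, a cluster assembly factor, was at 27.7 ± 2.53, 36.9 ± 1.87 and 42.4 ± 1.28 CPM in control, knockdown and rescue (0.61 in rescue against control, adjusted p = 1.07e-05).

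**Figure D4:**
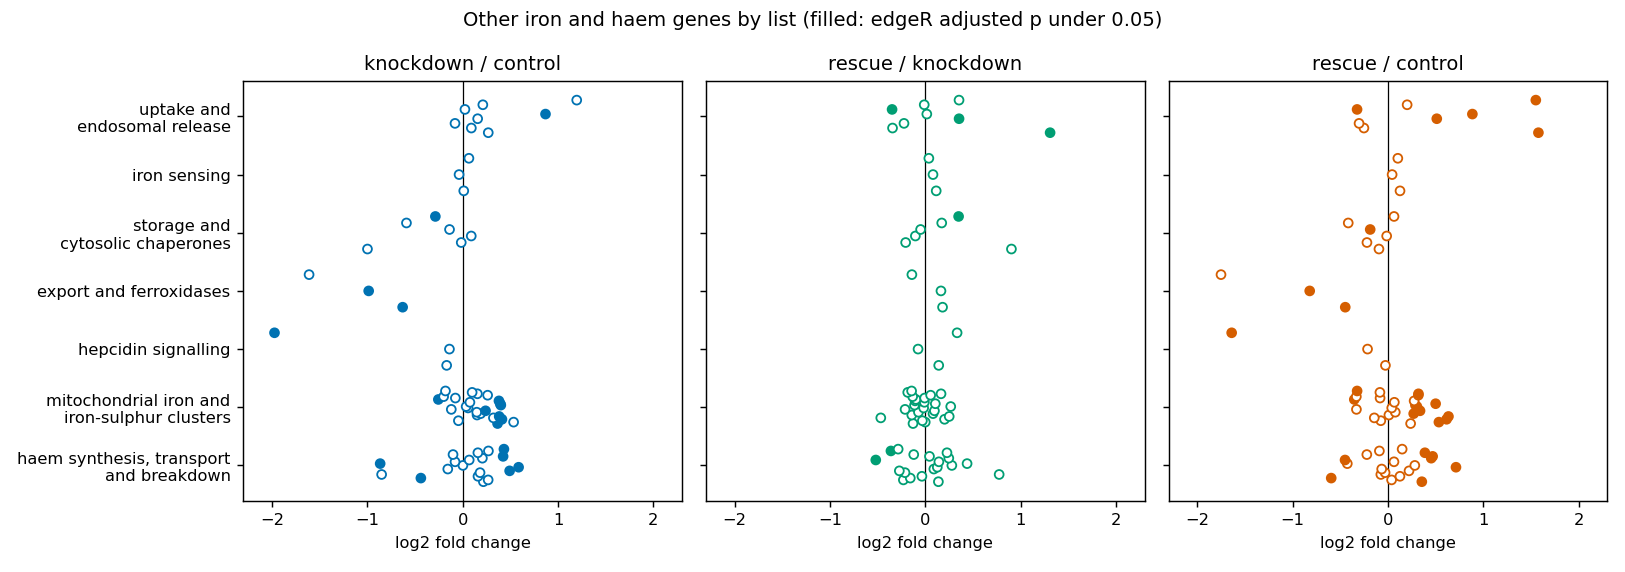
Log2 fold change of the 66 tested iron and haem genes outside the 10, 1 row per list and 1 panel per comparison; each point is a gene, filled where the edgeR adjusted p is under 0.05. The 3 sensing genes lie within −0.04 to 0.13 in all panels, and rescue / knockdown has 6 filled points against 19 in knockdown / control.

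Which library was left out mattered most for rescue against knockdown. The members called there ranged from 2 to 5 over the 9 leave-one-out fits: 2 without knockdown replicate 2 and 3 without rescue replicate 1 or rescue replicate 3. Calls over all genes also dropped in these fits, from 1854 to 1268, 1196 and 1258. STEAP1 and FTH1 kept their calls in all 9. Knockdown replicate 2 had the lowest TFRC and the highest FTH1 and FTL levels of its group, and it moved the values of TFRC, FTH1 and FTL towards 0 when it was left out.

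**Figure D5:**
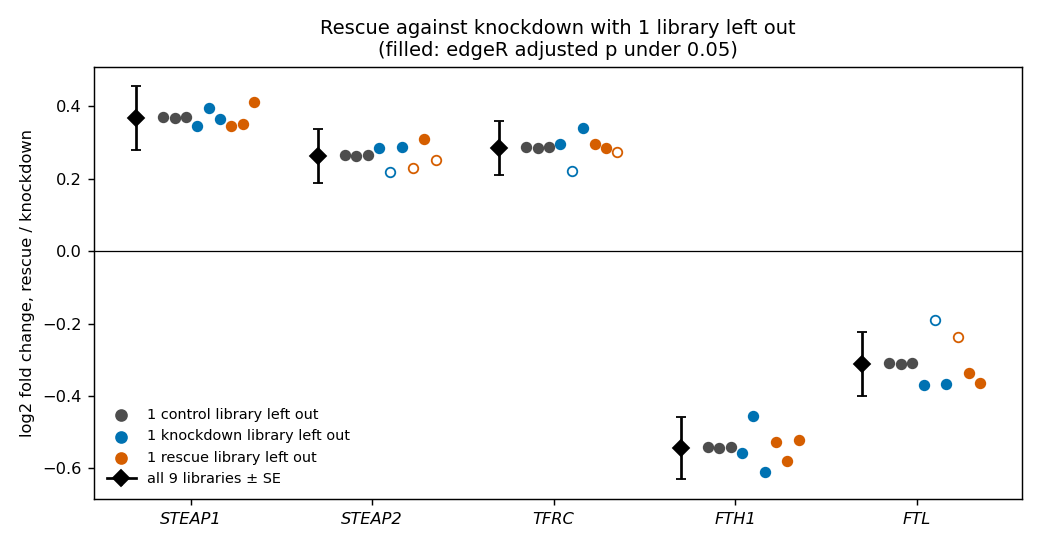
Log2 fold change in rescue / knockdown of 5 genes with all 9 libraries (diamonds, ± SE) and with each library left out (points coloured by the group of that library; filled points have an edgeR adjusted p under 0.05). STEAP1 stays filled at 0.34 to 0.41 and FTH1 at −0.61 to −0.46, while STEAP2, TFRC and FTL each have open points.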

How the data were processed

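Each library came as a table of read counts per gene, deposited by the authors. The submitters' processing notes list cutadapt, FastQC, HISAT2, HTSeq and the build hg19, without roles. Tool versions and the strand setting: not given in the sources used here. Rows without a gene (no feature, ambiguous, not unique) were left out of library sizes. Identifiers without version were matched to symbols.

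Counts were tested in R 4.3.3 with edgeR 4.0.16 (filterByExpr with a minimum count of 10, TMM, robust quasi-likelihood fit to all 9 libraries, 6 residual degrees of freedom). Standard errors were obtained by dividing the size of each log2 fold change by the root of its F statistic. The fit was tested on counts simulated with known changes in knockdown against control. It called 47.1% of 1.5-fold, 71.4% of 2-fold and 92.2% of 4-fold changes, and 0.0624% of unchanged genes. A gene that was not called may therefore still differ. Alternatives used DESeq2 1.42.0 and limma 3.58.1, other scalings and filters, and fits without each library.

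Members and lists were chosen with earlier results of these data known. Beside the members, the text names the 6 pathway genes with the smallest adjusted p per comparison, the 3 sensing genes and the nearest genes; other pathway genes and single marker genes were named after their values were seen. Some marker genes are not reported here, nor are list sums that contain them.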

Additional observations from a re-analysis of the deposited data

How the results depend on the processing

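Over 534 refits of single members, 511 kept the direction and the side of the threshold. Of the 291 that left no library out, 289 did; the exceptions were NCOA4 in knockdown against control, at −0.0297 with library totals only and −0.00205 with a minimum count of 50. Leaving out 1 library at a time gave 15 lost calls, all named above, and turned the sign of some differences that were not called: NCOA4 in knockdown against control ranged from −0.0333 to 0.0454, FTH1 in the same comparison from −0.15 to 0.00039, STEAP3 in rescue against knockdown from −0.0658 to 0.0876 and SLC40A1 there from −0.796 to 0.175. The members called in rescue against knockdown ranged from 2 to 5 in these fits, the pathway genes from 3 to 8 and all genes from 1196 to 2364. Same-numbered libraries did not deviate together (correlations −0.037 to 0.077), below the level taken to pair them; with the replicate number as a block, 5, 5 and 7 members were called in knockdown against control, rescue against knockdown and rescue against control, as without it, and 22, 6 and 30 pathway genes. The block raised the calls over all genes from 5899, 1854 and 6946 to 6348, 2319 and 7363, although libraries did not all correlate best with their own number. Without a filter on low counts STEAP4 was also called against control, which gave 6, 5 and 8 members. All 9 pairs of replicates differed by more than counting noise, so none was counted as a duplicate. Depth limits STEAP4 and SLC40A1, with at most 23 counts in a library.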

Other observations

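Further iron genes were picked out after their values were seen. TFR2, a second transferrin receptor, was at 0.518 ± 0.263 CPM for control, 1.19 ± 0.142 for knockdown and 1.53 ± 0.503 for rescue (SD, n = 3), and was called in rescue against control (log2 fold change 1.55, SE 0.48, edgeR adjusted p = 0.0119). The iron-binding protein lactoferrin (LTF) was below the filter, at 0.0779, 0.0868 and 0.476 CPM. In rescue against control, where 37.8% of all genes were called, the mitochondrial iron importer SLC25A37 fell by 0.32 on the log2 scale (SE 0.07, adjusted p = 0.000953). ABCB10, a mitochondrial transporter known to stabilise SLC25A37, rose by 0.35 (SE 0.12, adjusted p = 0.0203). Neither was called in knockdown against control (edgeR adjusted p = 0.0655 and 0.179) or in rescue against knockdown (0.255 and 0.555). A link between the 2 differences was not tested.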
